A study of Homo sapiens with 10 samples.

Results

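The genes described here are 41 genes of the integrated stress response, the transcriptional programme of the factor ATF4, of 59453 genes counted by RNA-seq in HAP1 cells. They were taken by name, as a list of ATF4, its partner factors and genes known as its targets, with earlier results of these data known. Shares of all genes given beside them are therefore a description. The list holds 7 transcription factors, 6 feedback regulators and stress effectors, 6 secreted and surface proteins, 9 enzymes of amino acid and one-carbon metabolism, 5 amino acid transporters and 8 genes of tRNA charging and export. All 41 genes passed the filter on low counts in the main fit of every comparison. They were followed in cells that lacked both the 8-oxoguanine glycosylase OGG1 and the adenine glycosylase MUTYH (double knockout, DKO) and in wild-type (WT) cells exposed to hydrogen peroxide, each compared with untreated WT cells. In untreated WT, GDF15 and INHBE gave 7 to 10 counts, and they passed the filter with the counts of other groups. In a fit of only the MUTYH-/- and WT libraries, 40 genes passed.

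HAP1 is an adherent, near-haploid human line derived from the chronic myeloid leukaemia line KBM-7. The groups were untreated WT (clones 2 and 11), MUTYH-/- (clones 7 and 8), OGG1-/- (clones 1 and 22), DKO (clones 4 and 14) and WT clones 2 and 11 harvested 24 h after exposure to 100 µM H2O2, with 1 library per clone and 2 libraries per group. The knockouts were made with CRISPR-Cas9, and the study's clone list gives 1 OGG1-/- clone as the parent of both DKO clones, read here from its product number as clone 22. The DKO clones share that parent's history. Clones stand for a genotype here. P values rest on the spread between the 2 clones within each group, pooled over the groups of a fit and with information shared over genes. The spread of the DKO clones is not that of knockouts made independently.

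In the integrated stress response, kinases that sense unfolded protein, uncharged tRNA, double-stranded RNA or haem shortage phosphorylate the initiation factor eIF2. Translation then falls in general while the ATF4 messenger is translated better, so that ATF4 protein can increase without a change in its transcript. ATF4 dimerizes with other basic leucine zipper proteins and binds composite C/EBP-ATF elements upstream of genes for amino acid synthesis, amino acid uptake, tRNA charging, redox balance and, under lasting stress, cell death.

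The binding element is shown first because it is the sequence through which ATF4 reaches its targets. A match is a description of these letters, and no match says nothing of the factor. The letters TGATGNAA, a core of the composite element, were searched on both strands of RefSeq promoter windows (GRCh38.p14) from 250 bases before to 50 bases after each annotated start. Windows were given for 36 of the 41 genes, and not for INHBE, PSPH, SHMT2, ALDH1L2 and SLC7A11. The motif was found for 11 of the 36 genes (30.6%), against 4.46% of 27305 genes in the whole table, or in 11 of 54 windows (20.4%) against 3.62% of 35116. The 11 genes were ATF3, CEBPG, JDP2, CHAC1, ASNS, SLC3A2, SLC1A4, GARS1, AARS1, NARS1 and MARS1. The cyclic AMP response element TGACGTCA was found for PPP1R15A (1 of 36 genes, 2.8%, against 2.25% of all genes), the variant TGACGCAA for ULBP1 (2.8% against 0.65%) and TGACGTAA for 0 genes (against 0.51%). The stretches below run 5′ to 3′ on the strand of the gene, with the motif or its reverse complement in capitals. They show the 2 called genes that held a motif, ATF3 and PPP1R15A, and examples from the other roles and the glutathione enzyme CHAC1. They lie at chr1:212565205-212565234 (ATF3, plus strand), chr19:48872352-48872381 (PPP1R15A, plus), chr15:40953251-40953280 (CHAC1, plus), chr6:149963840-149963869 (ULBP1, plus), chr7:97872458-97872487 (ASNS, minus), chr2:64989381-64989410 (SLC1A4, plus) and chr7:30594834-30594863 (GARS1, plus).
ATF3: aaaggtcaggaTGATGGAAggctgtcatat
PPP1R15A: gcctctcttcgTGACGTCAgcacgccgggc
CHAC1: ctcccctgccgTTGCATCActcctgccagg
ULBP1: ggaggggagagTTGCGTCAgccaggccgct
ASNS: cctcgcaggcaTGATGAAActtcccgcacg
SLC1A4: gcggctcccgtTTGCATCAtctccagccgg
GARS1: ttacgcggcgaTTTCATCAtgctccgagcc

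**Figure D1:**
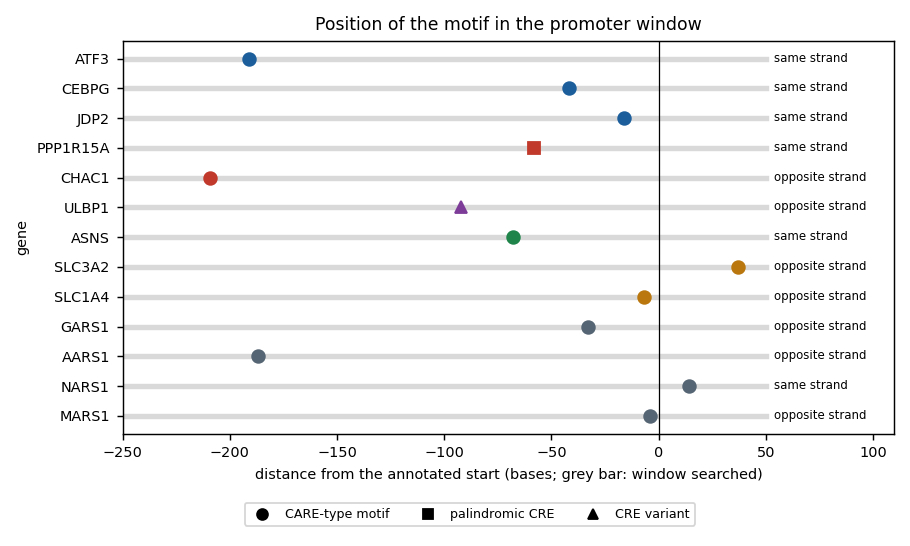
Distance in bases of each motif match from the annotated start, with 1 line per gene, colour for the gene's role, symbol for the motif and the strand at the right. Matches lie between 209 bases before the start (CHAC1) and 37 bases after it (SLC3A2).

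Total counts ranged from 22225091 to 22674964 per library. OGG1 transcripts numbered 27 in OGG1-/- clone 1, 254 in OGG1-/- clone 22 and 215 and 223 in the DKO clones, against 275 and 295 in untreated WT. MUTYH transcripts numbered 101 and 83 in MUTYH-/- and 106 and 50 in DKO, against 105 and 89 in WT. Apart from OGG1 in OGG1-/- clone 1, the transcript level thus does not check these labels. The paper reports that the knockouts of OGG1 and MUTYH were checked in every clone by targeted mass spectrometry. Of 7 haematopoietic markers, 6 were at or under 1 CPM (counts scaled to library size by TMM) in every library, and the 7 together summed to 0.276 to 1.53 CPM. The 4 epithelial markers summed to 36.6 to 101 CPM and the 5 mesenchymal markers to 227 to 515 CPM. In such bulk samples, fewer cells of a type and less RNA per cell cannot be told apart. The 8 untreated libraries were put on a pair of sides along the first axis of log2 CPM centred within genotype. Centring 2 clones per genotype places 1 clone of each on each side, so that split was fixed in advance. The axis took 49.9% of the variance within genotypes. WT clone 2, MUTYH-/- clone 8, OGG1-/- clone 22 and DKO clone 14 lay on side A, and the labels name no batch for it. Mitochondrial transcripts took 5.02% and 5.14% of counts in untreated WT, 3.38% and 2.995% in treated WT and 7.46% and 4.25% in DKO, and their part in the results was not tested.

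The first comparison asks whether loss of both glycosylases changes the programme without an added oxidant. In DKO cells, 2 of the 41 genes were called higher and 0 lower, where a gene was called by the criterion of the study, a log2 fold change above 1 or below -1 with P, not adjusted, no higher than 0.05. Over all 17881 genes tested, 1.24% were called higher and 0.531% lower. The called genes were GDF15, a secreted stress cytokine that suppresses appetite, and INHBE, the inhibin beta E chain. The median log2 fold change of the 41 genes was 0.04, against 0.000785 for all genes, and 25 of 41 were above 0. No member passed a Benjamini-Hochberg adjusted p of 0.05 in edgeR's quasi-likelihood test, and 0 of all genes did. By the Wald test of DESeq2, GDF15 and INHBE passed it. At an unadjusted P of 0.05 alone, 2 members were higher and 1 lower, against 1.83% and 1.11% of all genes.

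GDF15 gave 10 and 8 counts in WT clones 2 and 11 (0.447 and 0.355 CPM) and 142 and 101 counts in DKO clones 4 and 14 (6.40 and 4.41 CPM). Each DKO library lay above each WT library, and the log2 fold change was 3.75 ± 0.41 (SE, n = 2 clones per group, adjusted p = 0.318, edgeR). INHBE gave 7 and 9 counts in WT (0.313 and 0.399 CPM) and 63 and 54 counts in DKO (2.84 and 2.36 CPM), also without overlap. Its log2 fold change was 2.86 ± 0.38 (SE, adjusted p = 0.437, edgeR). Since both genes stood near 10 counts in WT, a filter that asks for 10 counts in every library removed them, and 0 members were then called. The sum of the 4 epithelial markers was also higher in OGG1-/- and DKO than in WT. It stood at 36.6 and 52.7 CPM in WT, 68.1 and 44.3 CPM in MUTYH-/-, 71.4 and 101 CPM in OGG1-/-, 95.3 and 90.7 CPM in DKO and 45.4 and 72.9 CPM in treated WT. KRT8, a keratin, stood at 8.54 and 17.6 CPM in WT, 29.7 and 8.77 CPM in MUTYH-/-, 37.5 and 45.5 CPM in OGG1-/-, 43.0 and 43.7 CPM in DKO and 11.4 and 21.4 CPM in treated WT. KRT18 stood at 27.6 and 34.5 CPM in WT, 38.3 and 35.0 CPM in MUTYH-/-, 32.7 and 54.3 CPM in OGG1-/-, 49.3 and 44.9 CPM in DKO and 32.9 and 50.5 CPM in treated WT, so OGG1-/- and WT overlapped for it. EPCAM stood at 0.402 and 0.665 CPM in WT, 0.138 and 0.526 CPM in MUTYH-/- and 1.22 and 1.47 CPM in OGG1-/-. It stood at 2.97 and 2.01 CPM in DKO and 0.966 and 1.01 CPM in treated WT. KRT8, KRT18 and EPCAM thus lay higher in both DKO libraries than in both WT libraries. CDH1 stayed under 0.1 CPM in every library. The part of these markers in the result was not tested.

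The secreted calcitonin-family peptide ADM2 was the member that was lower in DKO at P of 0.05, at 16.5 and 10.7 CPM in WT and 8.65 and 7.68 CPM in DKO. Its log2 fold change was -0.73 ± 0.28 (SE, adjusted p = 1, edgeR), short of the fold in the criterion. When WT clone 11 was left out it was -1.0 (adjusted p = 0.799, edgeR) and met the criterion.

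The transcription factors gave 0 calls of 7 in DKO, with a median log2 fold change of -0.04. ATF4 itself stood at 574 and 412 CPM in WT clones 2 and 11 and at 409 and 499 CPM in DKO, which overlap, with a log2 fold change of -0.10 ± 0.21 (SE, adjusted p = 1, edgeR). Its sign turned when DKO clone 4 (0.03) or WT clone 2 (0.14) was left out. DDIT3, which encodes CHOP, a factor tied to cell death under lasting stress, stood at 12.2 and 8.69 CPM in WT and 13.7 and 15.5 CPM in DKO. Its libraries did not overlap, and its log2 fold change of 0.50 ± 0.25 (SE, adjusted p = 1, edgeR) did not meet the criterion. Over all members, both DKO libraries lay above both WT libraries for 4 genes and below for 3, against 12.7% and 13.3% of all genes tested.

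The 6 feedback regulators and stress effectors had a median log2 fold change of 0.23 in DKO, with 5 of 6 above 0 and 0 called. SESN2, which restrains mTORC1 when leucine is low, stood at 38.8 and 32.3 CPM in WT and 42.4 and 45.4 CPM in DKO (log2 fold change 0.32 ± 0.16, SE, adjusted p = 1, edgeR). PPP1R15A, the GADD34 subunit that directs a phosphatase to eIF2, stood at 12.5 and 18.5 CPM in WT and at 28.3 and 16.8 CPM in DKO, with overlap (0.55 ± 0.34, SE, adjusted p = 1, edgeR). The pseudokinase TRIB3, which binds ATF4, had a log2 fold change of 0.14 ± 0.19 (SE) and NIBAN1, a stress-regulated inhibitor of cell death, one of 0.17 ± 0.22 (SE).

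The metabolic arm gave 0 calls in DKO. Its medians were 0.01 for the 9 enzymes, 0.06 for the 5 transporters and -0.01 for the 8 genes of tRNA charging and export. The lowest log2 fold change among the enzymes was that of ALDH1L2, a mitochondrial folate dehydrogenase of low count, at -0.46 ± 0.45 (SE, adjusted p = 1, edgeR). Without WT clone 2, the median of all 41 members was 0.17 and 3 genes were called, CHAC1 in addition to GDF15 and INHBE, where 1.01% of all genes were called higher. With the side of the untreated libraries as a block, GDF15 and INHBE were called at adjusted p of 0.197 and 0.207 (edgeR). By P of 0.05 alone that fit put 6 members higher (DDIT3, PPP1R15A, SESN2, ULBP1, GDF15 and INHBE) and ADM2 lower, against 3.94% and 3.37% of all genes. The sides were found from the same libraries that were tested, so the P values of that fit can be too small.

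**Figure D2:**
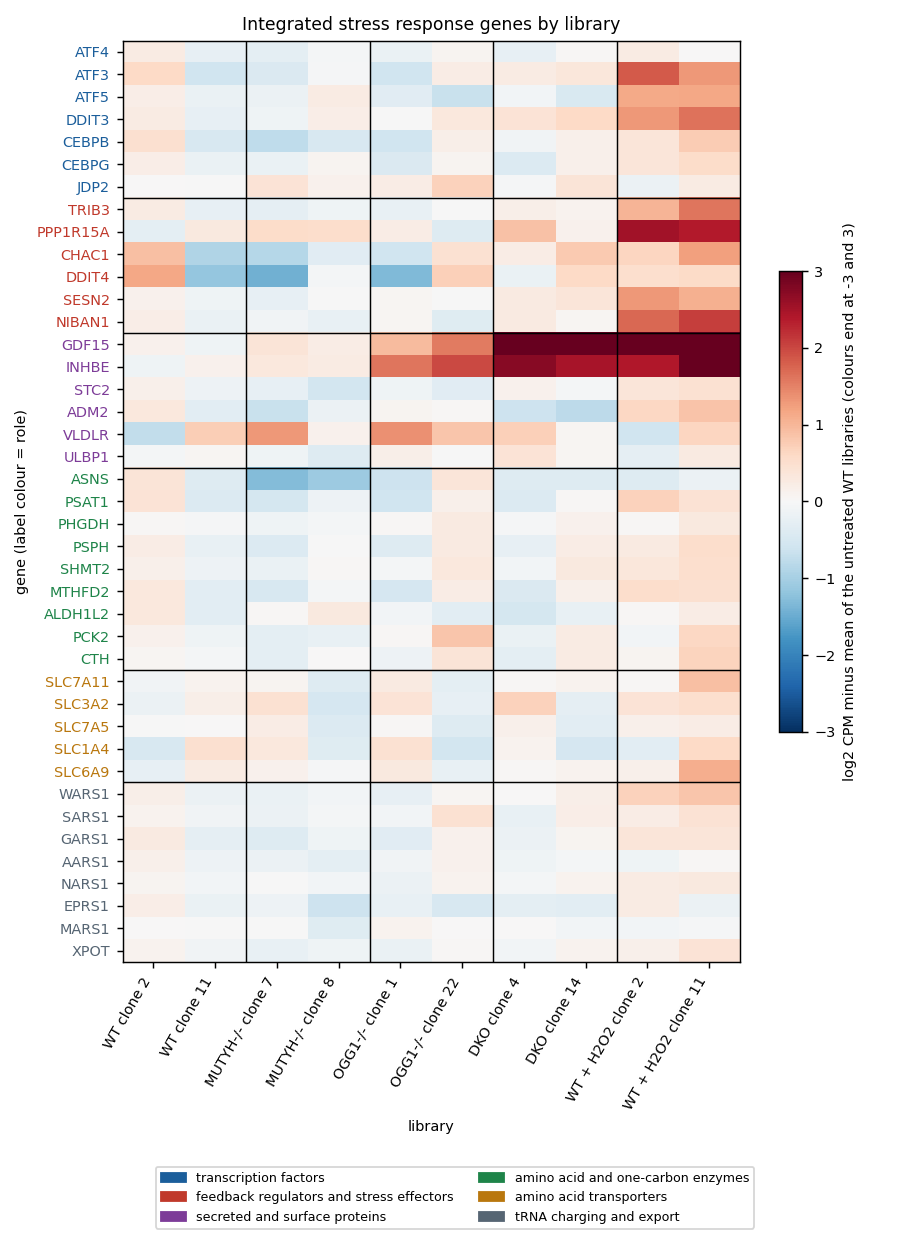
Log2 CPM of each of the 41 genes (rows, grouped by role) in each of the 10 libraries (columns), minus the mean of the 2 untreated WT libraries, with red for higher and blue for lower. GDF15 and INHBE are red in OGG1-/-, DKO and treated WT, and ATF3, ATF5, DDIT3, TRIB3, PPP1R15A, SESN2 and NIBAN1 are deepest red in the treated libraries.

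The second comparison asks what the same 41 genes did in WT cells 24 h after H2O2. In treated WT cells 9 of the 41 genes were called higher and 0 lower, where 0.741% of 16997 genes were called higher and 1.01% lower. The 9 genes were 3 transcription factors (ATF3, ATF5, DDIT3), 4 feedback regulators and stress effectors (TRIB3, PPP1R15A, SESN2, NIBAN1) and the secreted proteins GDF15 and INHBE. Of the 41 log2 fold changes 37 were above 0, with a median of 0.41 against 0.000176 for all genes. Both treated libraries lay above both untreated libraries for 25 genes and below for 1, where 21.1% and 20.0% of all genes did so. At an unadjusted P of 0.05, 15 members were higher and 0 lower, against 3.57% and 4.07% of all genes. No member passed the adjusted p in this fit (smallest adjusted p = 0.233, edgeR), nor did any other gene, while 10 members passed it by the Wald test of DESeq2.

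Treated and untreated libraries came from the same clones, so the comparison was also fitted with the clone as a replicate block. The same 9 genes were then called, against 1.19% of all genes called higher and 1.59% lower. In that fit 26 members were higher at P of 0.05 and 0 lower, against 9.61% and 10.5% of all genes. With the block 10 members passed the adjusted p, all higher, where 1.18% of all genes passed it higher and 1.39% lower. The 10 were the 9 called genes and WARS1, the cytosolic tryptophanyl-tRNA synthetase, and the block fit had 1 residual degree of freedom. Whether treated and untreated cells were grown and prepared together is not in the labels, so treatment and preparation cannot be told apart.

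**Figure D3:**
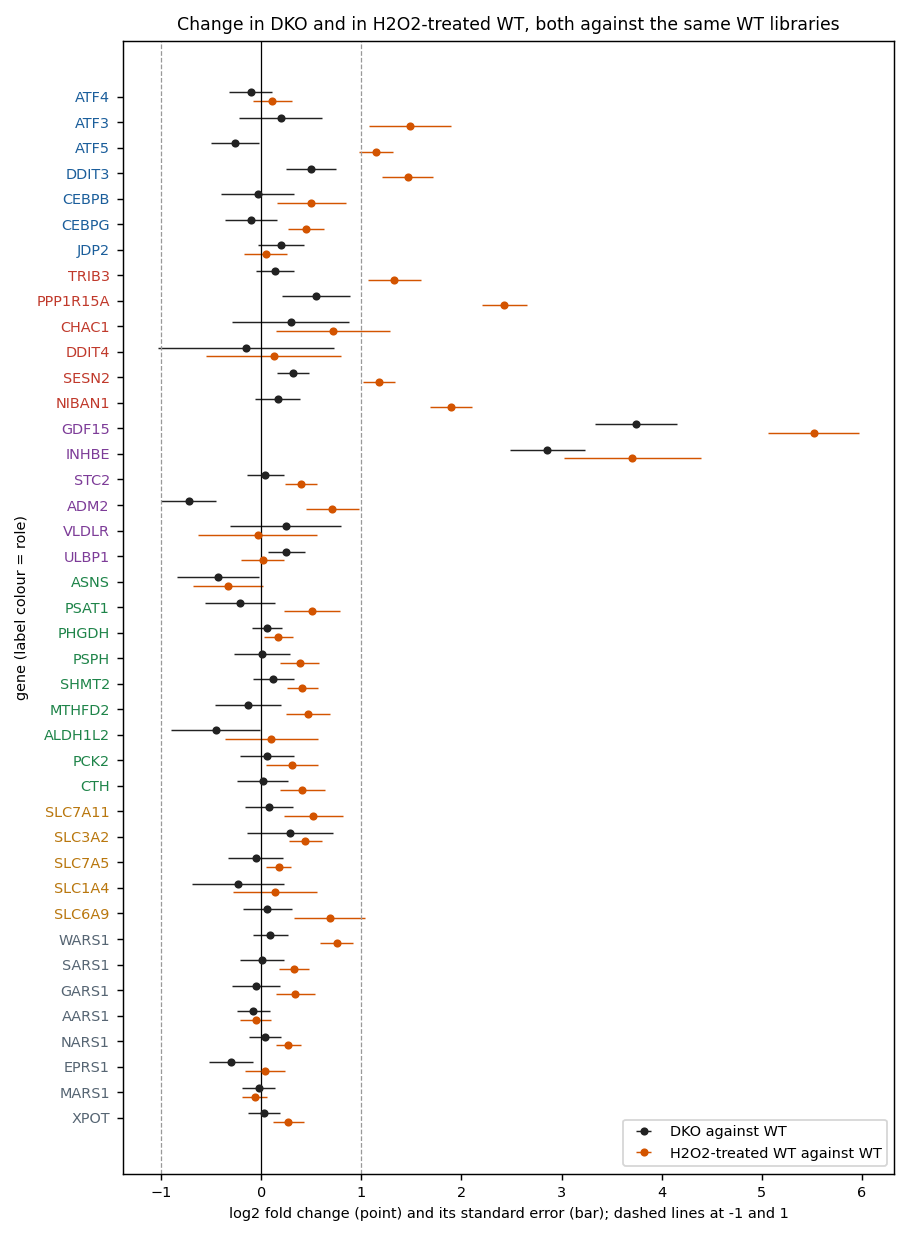
Log2 fold change (points) with its standard error (bars) of each of the 41 genes in DKO against WT (black) and in H2O2-treated WT against WT (orange), with dashed lines at -1 and 1. The 9 called genes lie past the right-hand line in treated WT, and of these GDF15 and INHBE also do in DKO.

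Among the transcription factors, ATF4 stood at 579 and 490 CPM in treated clones 2 and 11, a range that overlaps the untreated libraries, with a log2 fold change of 0.11 ± 0.19 (SE, adjusted p = 0.898, edgeR) and 0.13 ± 0.13 (SE, adjusted p = 0.613) with the block. Its sign turned without treated clone 2 (-0.01) or without untreated clone 11 (-0.10). ATF3, a repressive dimer partner of the same family, went from 23.3 and 10.2 CPM to 55.9 and 38.2 CPM, with a log2 fold change of 1.48 ± 0.41 (SE, adjusted p = 0.638, edgeR). It was no longer called, for its P, when treated clone 11 (log2 fold change 1.73) or treated clone 2 (1.18) was left out, and with the block its adjusted p was 0.000534. ATF5, itself translated better under eIF2 phosphorylation and linked to mitochondrial protein stress, went from 49.0 and 37.5 CPM to 95.1 and 96.5 CPM (1.14 ± 0.17, SE, adjusted p = 0.638, edgeR, adjusted p with the block = 0.00126). Without untreated clone 11 its log2 fold change was 0.97, under the fold of the criterion.

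DDIT3 went from 12.2 and 8.69 CPM to 25.3 and 32.2 CPM, a log2 fold change of 1.46 ± 0.25 (SE, adjusted p = 0.638, edgeR, adjusted p with the block = 0.00339). The DDIT3 gene overlaps MARS1 on the other strand, and whether reads were counted by strand is not stated. MARS1, the methionyl-tRNA synthetase, stood at 304 and 301 CPM untreated and 284 and 296 CPM treated. ATF5 overlaps NUP62 and IL4I1 on the other strand in the same way. The other transcription factors were not called. CEBPG, a frequent partner of ATF4, had a log2 fold change of 0.45 (adjusted p = 0.638, edgeR), CEBPB one of 0.50 and JDP2 one of 0.04.

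The feedback genes had the highest role median, 1.25 on the log2 fold change scale. PPP1R15A went from 12.5 and 18.5 CPM to 88.2 and 79.8 CPM, a log2 fold change of 2.43 ± 0.22 (SE, adjusted p = 0.233, edgeR, adjusted p with the block = 2.4e-05). NIBAN1 went from 24.8 and 18.5 CPM to 71.3 and 89.8 CPM (1.89 ± 0.21, SE, adjusted p = 0.462, edgeR). For both genes the lowest treated library lay far above the highest library of any untreated group. SESN2 went from 38.8 and 32.3 CPM to 87.4 and 74.0 CPM (1.18 ± 0.16, SE, adjusted p = 0.638, edgeR). TRIB3 went from 47.6 and 34.3 CPM to 82.1 and 124 CPM (1.33 ± 0.27, SE, adjusted p = 0.638, edgeR), and without treated clone 11 its log2 fold change was 0.99. CHAC1, which degrades glutathione, and DDIT4, an inhibitor of mTORC1 also called REDD1, were not called, with log2 fold changes of 0.72 ± 0.57 (SE) and 0.12 ± 0.67 (SE).

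GDF15 gave 537 and 291 counts (24.7 and 12.7 CPM) in treated clones 2 and 11 against 10 and 8 counts untreated, a log2 fold change of 5.52 ± 0.46 (SE, adjusted p = 0.233, edgeR, adjusted p with the block = 1.73e-06). INHBE gave 49 and 164 counts (2.25 and 7.17 CPM) against 7 and 9, a log2 fold change of 3.71 ± 0.68 (SE, adjusted p = 0.638, edgeR, adjusted p with the block = 0.000699). Neither gene's treated libraries overlapped the untreated ones. Among the other secreted and surface proteins, ADM2 went from 16.5 and 10.7 CPM to 20.4 and 24.2 CPM (0.71 ± 0.27, SE, adjusted p = 0.638, edgeR), and the glycoprotein hormone STC2 had a log2 fold change of 0.40 (adjusted p = 0.638, edgeR). The lipoprotein receptor VLDLR and the NKG2D ligand ULBP1 had log2 fold changes of -0.04 and 0.01.

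**Figure D4:**
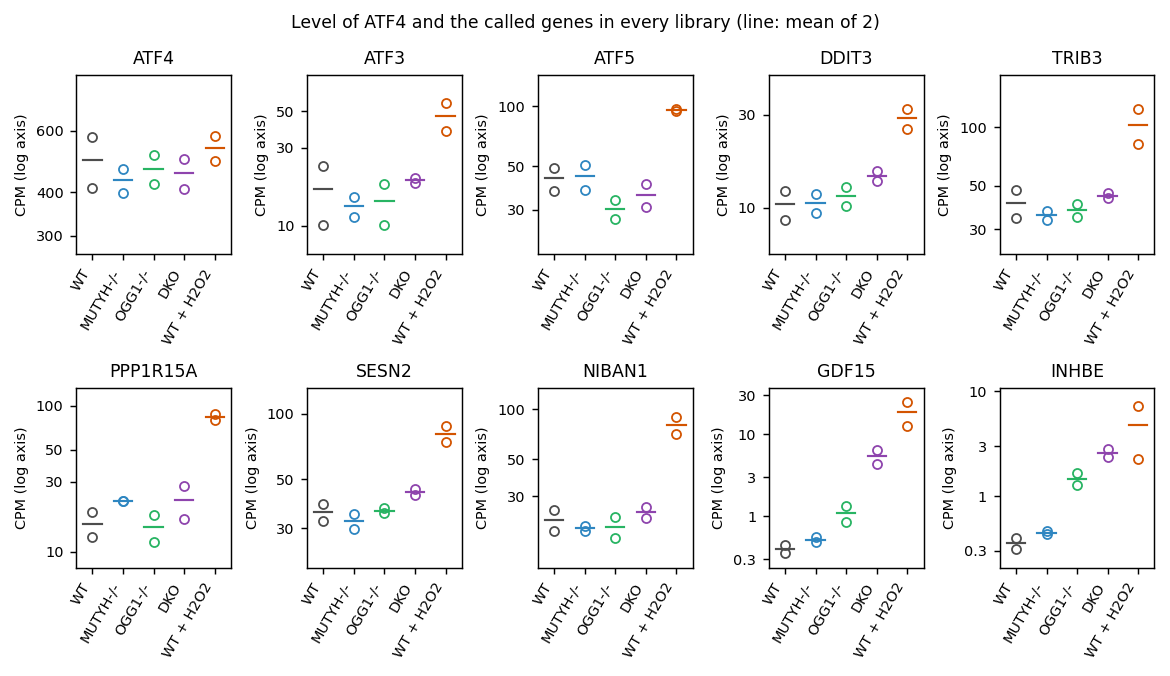
CPM on a log axis of ATF4 and the 9 called genes in every library (circles) by group, with the mean of 2 libraries as a line. For the 9 called genes the treated libraries lie above the untreated WT libraries, and for INHBE treated clone 2 (2.25 CPM) lies within the span of OGG1-/- and DKO libraries.

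No gene of amino acid metabolism, transport or tRNA charging was called after H2O2, with role medians of 0.38 for the enzymes, 0.44 for the transporters and 0.27 for tRNA charging and export. WARS1 went from 194 and 151 CPM to 276 and 307 CPM without overlap, with a log2 fold change of 0.75 ± 0.17 (SE, adjusted p = 0.638, edgeR) and an adjusted p of 0.0186 with the block. SHMT2, the mitochondrial serine hydroxymethyltransferase (0.41, adjusted p = 0.638), and SLC3A2, the heavy chain of the heterodimeric amino acid transporters (0.44, adjusted p = 0.638, edgeR), were the other members of these roles at P of 0.05. Of the 9 enzymes, 8 had a log2 fold change above 0. The exception was asparagine synthetase, ASNS, at 6.44 and 3.77 CPM untreated and 3.73 and 4.37 CPM treated (-0.34 ± 0.35, SE, adjusted p = 0.809, edgeR).

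The size of the change differed between the clones. In clone 11, treated minus untreated log2 CPM was above 0 for 39 of 41 genes (95.1%, against 50.4% of 18126 genes), with a median of 0.74 and 14 genes over 2-fold. In clone 2 it was above 0 for 31 of 41 (75.6%, against 51.1%), with a median of 0.15 and 7 genes over 2-fold. Over all genes, 2.49% in clone 11 and 2.28% in clone 2 were over 2-fold higher. The 9 enzymes had a median of 0.72 in clone 11 and 0.04 in clone 2, and all 6 feedback genes were over 2-fold higher in clone 11 but 3 of 6 in clone 2. With 1 pair per clone, this difference has no test.

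The clones started from different levels. CHAC1 stood at 18.4 CPM in untreated clone 2 and 5.28 CPM in untreated clone 11, and at 15.5 and 23.3 CPM after H2O2. DDIT4 stood at 25.8 and 5.15 CPM untreated and at 16.4 and 17.3 CPM treated. CEBPB, a C/EBP factor, stood at 27.7 and 14.2 CPM untreated and 25.6 and 33.8 CPM treated. For these 3 genes clone 2 was the higher before treatment and clone 11 after it. Among the called genes, GDF15 and PPP1R15A had the larger change in clone 2, by 5.53 against 4.85 and 2.81 against 2.10 on the log2 CPM scale. Without treated clone 11 the member median was 0.24 and 7 genes were called, without ATF3 and TRIB3, and without untreated clone 11 it was 0.23 with 8 called. Without untreated clone 2 the count was 13, with CEBPB, CHAC1, DDIT4 and ADM2 added, where 1.27% of all genes were called higher. The long arm of chromosome 1, which carries ATF3, NIBAN1 and EPRS1, had a median clone difference (clone 2 minus clone 11) of 0.32 untreated and 0.26 treated over 683 genes. Its median log2 fold change after H2O2 was 0.01, and in DKO -0.13.

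**Figure D5:**
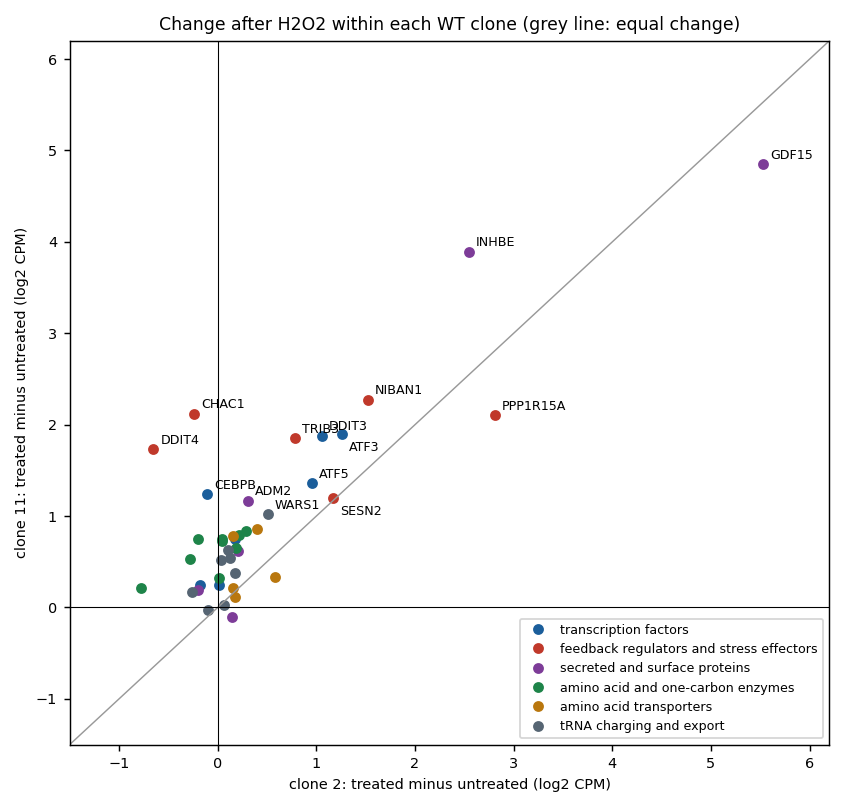
Treated minus untreated log2 CPM in WT clone 2 (x axis) and clone 11 (y axis), 1 point per gene, coloured by role, with a grey line for equal change and names for genes over 2-fold in either clone. Most points lie above the line, and CHAC1 (-0.24 and 2.12), DDIT4 (-0.65 and 1.73) and CEBPB (-0.11 and 1.24) lie left of 0.

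The third comparison sets the DKO libraries against the treated WT libraries. DKO against WT and treated against untreated WT share both untreated WT libraries, so their values are not independent, and the direct contrast was fitted across all 10 libraries. That fit held no block for the clones that treated and untreated WT share, and took their libraries as independent. In it 7 members were called lower in DKO than in treated WT and 0 higher, against 0.795% of 18124 genes lower and 1.95% higher. The 7 were ATF3 (log2 fold change -1.30), ATF5 (-1.42), TRIB3 (-1.21), PPP1R15A (-1.89), NIBAN1 (-1.74), GDF15 (-1.78) and ADM2 (-1.45), and the median of the 41 was -0.40 (-0.65 without DKO clone 14, -0.22 without treated clone 11). The smallest adjusted p among them was 0.220 (NIBAN1, edgeR), and the same fit put 0 members past an adjusted p of 0.05. The count was 7 by the Wald test of DESeq2, 7 in edgeR without the filter on low counts and 1 in edgeR with only these 2 groups. ATF3 was not called without DKO clone 4 or without treated clone 2, and TRIB3 was not called without treated clone 11.

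GDF15 stood at 6.40 and 4.41 CPM in DKO and at 24.7 and 12.7 CPM in treated WT, so the DKO libraries lay between untreated and treated WT. INHBE overlapped, at 2.84 and 2.36 CPM in DKO and 2.25 and 7.17 CPM in treated WT, with a difference of -0.86 ± 0.50 (SE, adjusted p = 0.681, edgeR). ADM2 stood at 8.65 and 7.68 CPM in DKO and 20.4 and 24.2 CPM in treated WT, with DKO below and treated WT above untreated WT. Side by side, the log2 fold changes against WT were 0.50 in DKO and 1.46 after H2O2 for DDIT3, 0.55 and 2.43 for PPP1R15A, 0.32 and 1.18 for SESN2, 0.17 and 1.89 for NIBAN1 and -0.26 and 1.14 for ATF5.

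The single knockouts were compared with WT to see which loss the DKO values go with. In MUTYH-/- cells 1 member was called lower and 0 higher, against 0.777% and 0.408% of all genes. It was ASNS, at 1.93 and 2.28 CPM against 6.44 and 3.77 CPM in WT (log2 fold change -1.26 ± 0.42, SE, adjusted p = 1, edgeR). The call was lost without WT clone 2 (-0.84) or without MUTYH-/- clone 7 (-1.15), and without WT clone 11 3 members were called lower (ASNS, CEBPB and CHAC1) and VLDLR higher, where 1.93% and 1.8% of all genes were. In OGG1-/- cells 2 members were called higher and 0 lower, against 0.811% and 0.861% of all genes, and they were again GDF15 and INHBE, with the epithelial marker sums given above also higher. GDF15 gave 19 and 30 counts in clones 1 and 22 (0.860 and 1.34 CPM), a log2 fold change of 1.44 ± 0.41 (SE, adjusted p = 0.999, edgeR). It was not called, for its P, without clone 22 (1.10) or without WT clone 11 (1.30). INHBE gave 28 and 37 counts (1.27 and 1.65 CPM), a log2 fold change of 2.02 ± 0.38 (SE, adjusted p = 0.999, edgeR).

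From OGG1-/- to DKO, 1 member was called higher and 0 lower, against 1.06% and 0.386% of all genes. It was GDF15, with a log2 fold change of 2.30 ± 0.37 (SE, adjusted p = 1, edgeR), called with each OGG1-/- and DKO library left out in turn. INHBE had 0.84 ± 0.33 (SE, adjusted p = 1, edgeR), under the fold of the criterion. The order of the group means was the same for both genes: WT, MUTYH-/-, OGG1-/-, DKO and treated WT, with GDF15 at 0.401, 0.517, 1.10, 5.40 and 18.7 CPM and INHBE at 0.356, 0.449, 1.46, 2.60 and 4.71 CPM. Both MUTYH-/- libraries lay above both WT libraries for each gene (GDF15 at 0.552 and 0.482 CPM, INHBE at 0.460 and 0.438 CPM), but neither difference met the criterion (log2 fold changes 0.38 ± 0.43 and 0.34 ± 0.41, SE, adjusted p = 1 for both, edgeR). The counts were 12 and 11 against 10 and 8 for GDF15 and 10 and 10 against 7 and 9 for INHBE. Of the 41 members 4 lay above in this way and 8 below, against 1813 and 2013 of 17881 genes, so this step of the order rests on a few reads. For INHBE the DKO and treated WT libraries overlapped.

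The effect of MUTYH loss was compared between cells with and without OGG1 by the interaction of the genotypes. The change from OGG1-/- to DKO exceeded the change from WT to MUTYH-/- at the criterion for 1 member, with 0 called in the opposite direction, against 1.41% and 0.593% of all genes. For GDF15 the difference of the log2 changes was 1.93 ± 0.57 (SE, adjusted p = 1, edgeR), and for INHBE it was 0.50 ± 0.53 (SE, adjusted p = 1, edgeR). Without WT clone 11, 4 members were called higher (ATF3, CEBPB, CHAC1 and GDF15) and VLDLR lower, where 2.31% and 1.91% of all genes were. Without OGG1-/- clone 22, CEBPB, GDF15 and ASNS were called higher (1.37% of all genes), and without MUTYH-/- clone 8, GDF15 higher and VLDLR lower (2.41% and 1.04%). The side block, found from the same libraries, gave CHAC1, DDIT4 and GDF15 higher and VLDLR lower (2.07% and 1.1%).

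Within genotypes the roles differed in which clone was the higher. On side A the 9 enzymes stood above side B for 9 of 9 genes in WT, MUTYH-/- and DKO and 8 of 9 in OGG1-/-, with medians of 0.44, 0.26, 0.44 and 0.65 on the log2 CPM scale. PSAT1, which makes phosphoserine, stood at 379, 257, 317 and 293 CPM on side A in WT, MUTYH-/-, OGG1-/- and DKO and at 214, 198, 187 and 213 CPM on side B. The transporters went the other way, with 0 of 5 higher on side A in WT, MUTYH-/- and OGG1-/- and 2 of 5 in DKO. SLC1A4, a neutral amino acid carrier, stood at 24.4, 26.7, 23.5 and 24.2 CPM on side A and at 48.0, 42.5, 46.8 and 37.1 CPM on side B. The sides were found from all genes of these libraries, so these values are a description without a test.

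Genes upstream of ATF4 and of neighbouring pathways were counted from lists of names. Of 12 eIF2 kinases, phosphatase subunits and relay genes, 10 eIF2 and eIF2B subunits, 18 genes of the ATF6 and XBP1 arms of endoplasmic reticulum stress, 13 further cytosolic and 17 mitochondrial tRNA synthetases and 9 of 10 further folate enzymes tested, 0 were called in DKO and 0 after H2O2. With 1.24% and 0.531% of all genes called in DKO and 0.741% and 1.01% after H2O2, a count of 0 is near the background. In DKO the list medians ran from -0.11 (mitochondrial synthetases) to 0.03 (cytosolic synthetases). After H2O2 the medians of log2 fold change were 0.08 for the kinases and their phosphatases, 0.22 for the eIF2 and eIF2B subunits, -0.13 for the ATF6 and XBP1 arms, 0.18 for the cytosolic synthetases and 0.00105 for the mitochondrial ones. In DKO against treated WT the folate enzyme ALDH1L1 was called higher (1.16 ± 0.43, SE, adjusted p = 0.592, edgeR), where 1.95% of all genes were.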

How the data were processed

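RNA-seq counts of 10 libraries were used. The deposited values are read counts per gene, not normalized, which the authors made by aligning to GRCh38.p13 with HISAT2 2.2.1 and counting with Rsubread featureCounts on Ensembl 103. Strand and multi-mapping settings are not given in the sources used here, so overlapping genes may share reads. The 2 WT columns repeated between the tables were identical and used once. Tests used edgeR 4.0.16 in R 4.3.3 (TMM, filterByExpr, quasi-likelihood test with legacy=TRUE, two-sided, Benjamini-Hochberg), with genotypes in a fit of 8 libraries (4 residual degrees of freedom) and treatment in a fit of 4 (2). Clone differences in treated and untreated WT correlated across 18126 genes (r = 0.629), which with the shared clones pairs them. Log2 CPM used a prior count of 2. SE came from the F statistic. The test was checked on simulated data. Motifs came from RefSeq promoters, gene overlaps from GENCODE 44. Alternatives included DESeq2 1.42.0. Values per library are given for members that met the criterion in DKO or after H2O2, for ATF4 and DDIT3 and for single examples; others were named after their values were seen. Members and lists were chosen with earlier results of these data known. Reads carry no molecular identifiers, so counts are not independent molecules.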

Additional observations from a re-analysis of the deposited data

Results flagged for a closer look

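For GDF15 the interaction of the genotypes met the criterion of the study, where 1.41% of all genes were called higher. The log2 change from OGG1-/- to DKO exceeded that from WT to MUTYH-/- by 1.93 (SE 0.57, adjusted p = 1, edgeR). The WT and MUTYH-/- libraries gave 8 to 12 counts of GDF15. Both DKO clones share 1 OGG1-/- parent, read here as clone 22. That clone gave 30 counts of GDF15, against 142 and 101 in DKO clones 4 and 14. The later editing, cloning and culture of the DKO clones and the loss of MUTYH cannot be told apart. DDIT4 moved in opposite directions in the 2 WT clones after H2O2, by -0.65 in clone 2 and 1.73 in clone 11 on the log2 CPM scale, with 1 pair of libraries per clone, and this difference was not tested. It was the only 1 of the 41 genes with opposite changes of over 0.5 in both clones. Groups of 2 libraries were too small for a check of single outlying libraries.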

How the results depend on the processing

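The counts of called members stayed within 1.5 times under DESeq2 size factors, the DESeq2 Wald test, legacy=FALSE, no filter and other sets of libraries. A minimum of 10 counts in every library left 0 calls in DKO against WT, OGG1-/- against WT, DKO against OGG1-/- and the interaction, since it removed GDF15 and INHBE. After H2O2 it left 7 calls of 39 members tested, all higher, where 0.55% of all genes were called higher. In DKO against treated WT it left 6 calls of 38, all lower, where 0.37% of all genes were called lower. The replicate block raised members past the adjusted p after H2O2 from 0 to 10, the DESeq2 Wald test gave 10 and 1 fit of all libraries gave 1. In DKO against treated WT that count was 7 with no filter, 7 by the DESeq2 Wald test and 1 with only the groups compared. The side block, found from the same libraries, gave 4 calls in the interaction. Libraries were then left out only from the groups compared. Leaving out each library in turn gave 2 to 3 calls in DKO against WT, 7 to 13 after H2O2, 0 to 4 in MUTYH-/-, 1 to 2 in OGG1-/-, 1 in DKO against OGG1-/-, 6 to 9 in DKO against treated WT and 1 to 5 in the interaction. Member medians then ran from -0.074 to 0.17 in DKO and from 0.23 to 0.56 after H2O2, and 0 members passed the adjusted p. Among single genes, the log2 fold change in DKO turned sign without 1 library for ATF4 (-0.32 to 0.14, above 0 at 0.03 without DKO clone 4 and at 0.14 without WT clone 2), ATF3 (-0.28 to 0.90), TRIB3 (-0.079 to 0.38) and NIBAN1 (-0.025 to 0.38), the last 3 without WT clone 11. After H2O2 it did so for ATF4 (-0.10 to 0.36, below 0 without treated clone 2, -0.01, or untreated clone 11). The cause was not tested. Depth limits GDF15, INHBE and ALDH1L2, which have fewer than 10 counts in some library. With 2 clones per group, a missed threshold does not show equal expression.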
